A study of Homo sapiens with 5 samples.

Results

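The genes described here encode the proteasome, the protease that degrades ubiquitin-tagged proteins, together with the factors that assemble, activate or inhibit it. Members were the genes whose symbol is PSMA to PSMG followed by a number, without antisense or pseudogene entries, together with POMP, SHFM1 and ADRM1. This gave 51 of the 25343 genes in the table of expected counts. Of these, 49 had a mean of at least 1 CPM (counts per 1000000 of the library total) over the 5 libraries. PSMA8, an α subunit of the testis, and PSMB11, a catalytic subunit of the thymus, had 0 counts in every library. The 51 members were 8 α subunits and 7 constitutive β subunits of the 20S core, 4 immunoproteasome and thymoproteasome subunits, 6 ATPases and 13 further subunits of the 19S cap, 3 chaperones of 19S assembly, 5 factors of 20S assembly, and 5 activators and inhibitors.

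The study asked how isoforms of TEAD4, a DNA-binding partner of YAP, and the splicing factor RBM4 alter the output of YAP, which drives transcription when Hippo signalling is low. RNA was sequenced from 5 stable lines of H157, a human lung carcinoma cell line. The labels name the control pCDNA-ctl, and it is called vector here. Line YAP carries YAP alone. YAP-TEAD434 is YAP with full-length TEAD4 and is called the FL line, and YAP-TEAD305 is YAP with the short isoform and is called the S line. The last is YAP-RBM4, called the RBM4-labelled line for a reason given below. A single library was made per line, so no comparison between lines has a replicate and none was tested. All 4 ratios to vector share the one vector library, and all lines other than vector carry introduced YAP. The methods describe pCDH lentiviruses for stable lines, whereas the control is labelled pCDNA, so the match of the control to the other lines is uncertain. The sources used here do not say whether a line was 1 clone or a pool.

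The 20S core is a barrel of stacked rings, with α subunits at the gates and β subunits, 3 of them catalytic, inside. The 19S cap binds ubiquitin chains, removes them, and unfolds and feeds the substrate through its ring of ATPases. Under interferon, PSMB8, PSMB9 and PSMB10 replace the constitutive catalytic subunits PSMB5, PSMB6 and PSMB7, and the 11S activator of PSME1 and PSME2 can dock in place of the cap. The resulting immunoproteasome makes peptides for MHC class I. In many cells the constitutive subunits are made in balanced amounts, and the transcription factor NFE2L1 raises them together when proteasome activity is short.

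Promoter sequences are shown first because members share letters of known regulatory elements, and the interferon-inducible and constitutive subunits are described apart below. RefSeq windows from 250 bases before to 50 bases after a transcription start (GRCh38.p14) were found for 45 of the 51 members, in 57 windows. PSMA7, PSMB1, PSMB6, PSMB7, PSMD4 and PSMG3 had no window. Both strands were searched, and no match of one motif overlapped that of another in a member. The letters of an interferon-stimulated response element, GAAANNGAAA, were present in 12.3% of the members' windows and in 3.57% of all 35116 windows. Of the 7 members with them, these 5 share the letters GAAAGCGAAA or, on the other strand, TTTCGCTTTC, shown in capitals in the direction of the gene. They include 2 of the immunoproteasome subunits and both genes of the 11S activator:
PSMB8 (chr6:32844032-32844061, minus strand): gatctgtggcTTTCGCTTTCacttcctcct
PSMB10 (chr16:67936852-67936881, minus strand): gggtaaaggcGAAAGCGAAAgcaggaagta
PSME1 (chr14:24136189-24136218, plus strand): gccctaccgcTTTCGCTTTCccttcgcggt
PSME2 (chr14:24146619-24146648, minus strand): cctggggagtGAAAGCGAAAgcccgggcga
PSMG4 (chr6:3258904-3258933, plus strand): ttccggggccGAAAGCGAAAgcgcgctcgg

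The core of the antioxidant response element, TGACNNNGC, which NFE2L1 is known to bind, was present in 31.6% of the members' windows and in 13.3% of all windows. It was found in 17 of the 45 members. The sequences below show it in capitals for members of the α ring, the β ring, the ATPase ring and the rest of the cap:
PSMA4 (chr15:78540650-78540678, plus strand): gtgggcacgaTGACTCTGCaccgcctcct
PSMB3 (chr17:38752627-38752655, plus strand): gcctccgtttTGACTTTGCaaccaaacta
PSMC5 (chr17:63827654-63827682, plus strand): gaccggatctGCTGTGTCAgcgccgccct
PSMD12 (chr17:67366724-67366752, minus strand): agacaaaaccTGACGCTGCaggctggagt
ADRM1 (chr20:62302749-62302777, plus strand): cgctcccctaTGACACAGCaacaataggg

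Letters of the TEAD motif, CATTCC, were no more frequent in the members' windows (14.04%) than in all windows (14.03%). They are shown for the 2 genes that encode the alternative catalytic subunits of 1 site of the core, because the study is about a TEAD factor and their ratio is followed below:
PSMB5 (chr14:23034972-23034997, minus strand): aaaatggctcCATTCCggaatagatt
PSMB8 (chr6:32844178-32844203, minus strand): cttgacccatCATTCCcccgaccccc
CCAAT was found in 40.4% of the members' windows and 34.6% of all, and the gamma-activated sequence TTCNNNGAA in 14.04% and 7.66%. A match is a description of these letters and says nothing of binding in H157 cells.

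Library totals were between 1399452 (YAP) and 3015173 (the S line) expected counts, and the members took 0.120% to 0.160% of them. The median member had 32 counts in vector, 20 with YAP, 41 in the FL line, 37 in the S line and 48 in the RBM4-labelled line. A count of 0 allows up to 3 counts, which is 2.14 CPM in the YAP library and 0.995 to 1.399 CPM in the others. YAP1 stood at 33.1 CPM in vector and between 59.4 and 135.6 CPM in the 4 YAP lines, and TEAD4 at 3.73 CPM in vector, 120.6 in the FL line and 50.03 in the S line. RBM4 stood at 149.7 CPM in vector and 167.2 CPM in the RBM4-labelled line, a ratio of 1.12 (95% counting interval 0.967 to 1.29), so the gene that names this library was not higher beyond counting error. The other lines had 201.9 CPM with YAP, 197.6 in the FL line and 131.8 in the S line, so RBM4 was lower in the RBM4-labelled line than with YAP, at 0.827 (0.710 to 0.964). These are RNA values, and the methods of the paper say that transgene expression in stable lines was checked by western blot. The 50 most abundant genes took 31.7% to 46.0% of a library, most in the S line. Among them, VAX1 had 63157 CPM in vector, 7133 with YAP, 42206 in the FL line, 140664 in the S line and 60054 in the RBM4-labelled line. The median log2 ratio to vector of the 15024 genes compared was 0.00060, 0.094, -0.29 and 0.17 in the order YAP, FL, S and RBM4-labelled. Changes are therefore also given relative to this all-gene median. Of 7 epithelial markers, KRT8, KRT18 and CDH1 made up nearly all of a summed 518 to 1402 CPM, while KRT19, KRT5, KRT14 and EPCAM were at or near 0. Of 4 lung markers, NKX2-1 and SFTPC were at 0 in every library and SFTPB made up nearly all of the 21.3 to 33.6 CPM. Of 9 markers of other cells, CD3E and VWF were at 0 and PTPRC, PECAM1 and CD68 made up most of a summed 361 to 487 CPM. The part of these markers in the results was not tested.

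Measured per kilobase of the canonical transcript, the members were far from equal. Means over the 5 libraries ran from 0.679 CPM per kb for PSME4, an activator of large size, to 120.5 CPM per kb for PSMB7, a catalytic β subunit with trypsin-like activity. The 7 constitutive β subunits differed by 10.3-fold, from PSMB4 at 11.7 to PSMB7 at 120.5 CPM per kb. The 7 detected α subunits differed by 15.6-fold, from PSMA4 at 3.43 to PSMA7 at 53.6 CPM per kb, although each ring holds 1 copy of each subunit. Among the 6 ATPases, PSMC6 was lowest at 2.65 and PSMC3 highest at 31.9 CPM per kb. Of the immunoproteasome subunits, which had a median of 4.85 CPM per kb against 13.9 for the constitutive β ring, PSMB9 and PSMB10 were low, whereas PSMB8 at 11.6 CPM per kb was level with PSMB4. The cap subunits ADRM1, a ubiquitin receptor, at 49.8, and PSMD12, a scaffold subunit of the lid, at 2.64 CPM per kb were the ends of that list. Unscaled for length, the median member stood at 14.3 CPM, close to the 12.4 CPM of all 15024 genes, and 11 of the 49 members were under 10 CPM.

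Against vector, the members as a set stayed close to the rest of the genes in all 4 lines. The median log2 ratio of the 49 members, relative to the all-gene median, was -0.13 with YAP, 0.17 in the FL line, 0.13 in the S line and 0.10 in the RBM4-labelled line. With YAP, 16 of the 49 were above the all-gene median and 33 below. The other lines had more members above than below, at 34, 29 and 29 of the 49 in the same order. PSMG2 and PSMG4 had 0 counts in the YAP library, and with PSMG4 set to the floor and PSMG2 left out the YAP median was -0.11. In bulk RNA, fewer cells with a transcript and less of it per cell cannot be told apart.

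Few members reached 2-fold in any line. With YAP, 0 of the 49 were at least 2-fold above vector, against 4.9% of all genes, and 4 were at least 2-fold below, which is 8.16% of the members against 9.57% of all genes. The 4 were PSMB9, PSME1, PSMG2 and PSMG4, of which all but PSME1 had 10 counts or fewer in both libraries. For PSMG2 and PSMG4, at 0 counts with YAP, the 2-fold rests on the pseudocount of 0.5 CPM, and without them 2 were below. In the FL line, 0 members were at least 2-fold above (all genes 8.9%) and only PSMB8 was at least 2-fold below (all genes 6%). In the S line, 0 members were above (all genes 3.5%), and PSMB8 and PSMG4 were below (all genes 11%). The RBM4-labelled line held 4 members at least 2-fold above vector, PSMA6, PSMB3, PSMD10 and PSMG2, which is 8.16% of the members against 9.22% of all genes, and 0 below against 3.47%. Every one of these shares was below that of all genes. In the RBM4-labelled line, PSMB1 and PSMF1 passed 2-fold on CPM alone but not with 0.5 CPM added. With a pseudocount of 0.1 CPM, 6 members were at least 2-fold above there, and the share of all genes was not computed.

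Counting intervals gave a similar picture, apart from the members above the all-gene median in the RBM4-labelled line. The exact 95% interval of the ratio to vector included 1 for 45 of the 49 members with YAP, 43 in the FL line, 43 in the S line and 36 in the RBM4-labelled line. It lay wholly within 2-fold of vector for 18, 23, 21 and 22 members. For fewer than 50% of the members, then, a 2-fold change lies outside counting error. These counts are on library totals and so include any shift of all genes, and the share of all genes was not computed for them. Set against the all-gene median, the interval lay above it for 1 member with YAP (PSMD2; all genes 8.65%) and below it for 3 (PSMA3, PSMB8 and PSME1; all genes 7.41%). In the FL line it lay above for 3 members, the cap subunits PSMD1, PSMD2 and PSMD4 (all genes 10%), and below for PSMB7 and PSMB8 (all genes 11.8%). In the S line, 4 lay above, PSMB2, PSMC3, PSMF1 and PSMG3 (all genes 8.49%), and 4 below, ADRM1, PSMB7, PSMB8 and PSME1 (all genes 10.3%). In the RBM4-labelled line, 7 lay above, PSMA6, PSMB1, PSMB3, PSMC3, PSMD4, PSMF1 and PSMG3, which is 14.3% of the members against 8.1% of all genes, and 3 below, ADRM1, PSMB7 and PSMB8 (all genes 12.1%). PSMB8 was the 1 member of 49 whose interval lay below the all-gene median in all 4 lines. The share of all genes that did so was not computed. By direction alone, relative to the all-gene median, 8 members were below vector in all 4 lines, against 20.9% of all genes. The intervals of PSME2 in the FL line, of PSMD3 and PSMD7 in the S line and of PSMD2, PSMD8, PSMD10 and SHFM1 in the RBM4-labelled line excluded 1 but included the all-gene median.

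**Figure D1:**
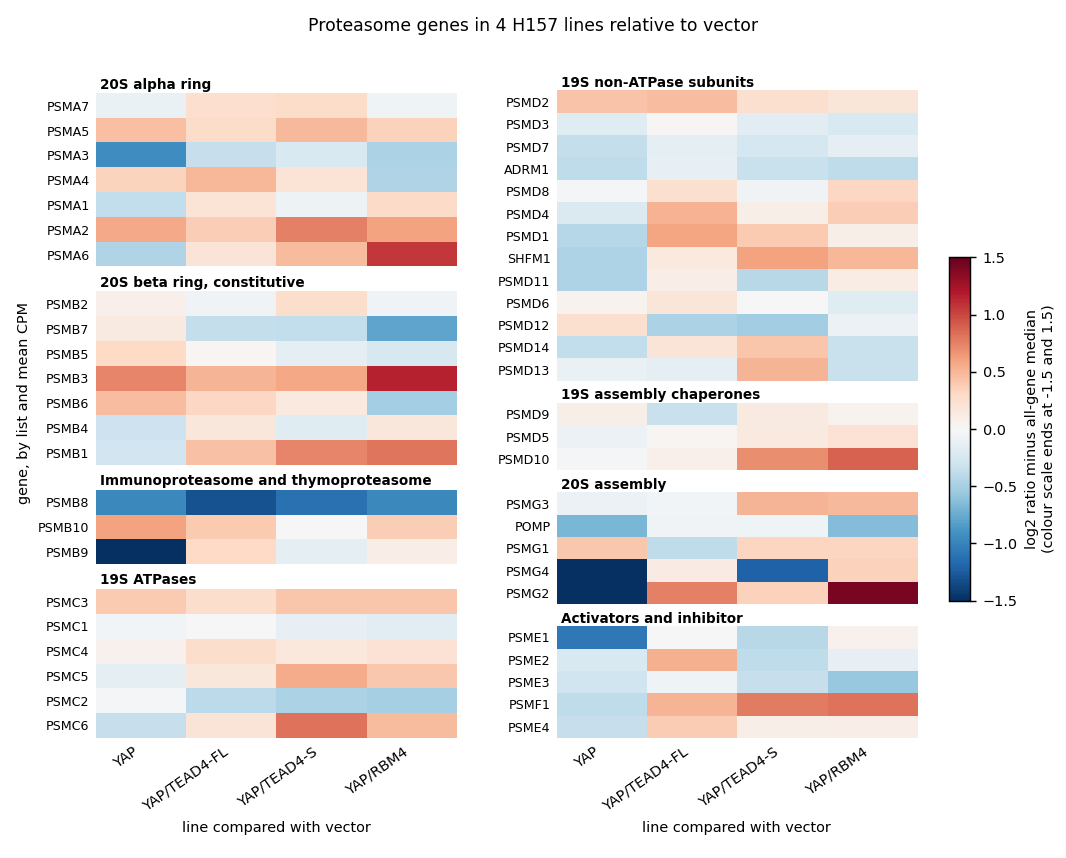
Heat map of the log2 ratio to vector, less the all-gene median, for the 49 members that passed the filter, in rows by list and by falling mean CPM and in columns by line. Blue is lower and red higher than vector. Most cells are pale, PSMB8 is blue in all 4 columns and PSMB3 red in all 4, and PSMB9, PSMG2 and PSMG4, which rest on 15 counts or fewer in each library, hold the darkest blue cells with YAP. Columns YAP/TEAD4-FL and YAP/TEAD4-S are the FL and S lines.

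Among the α subunits, which form the outer rings and the gate, no member was 2-fold away from vector except PSMA6 in the RBM4-labelled line. PSMA3 stood at 26.4 CPM in vector, 13.6 with YAP, 22.0 in the FL line, 18.2 in the S line and 21.3 in the RBM4-labelled line. It was highest in vector and lowest with YAP, where the ratio was 0.511 (0.287 to 0.872). PSMA4 had 13.5, 17.1, 20.7, 12.7 and 11.1 CPM in the same order. All 4 of its intervals against vector included 1, and the ratio of the S line to the FL line was 0.604 (0.386 to 0.940), an interval that includes the all-gene median of that comparison. PSMA6 had 13, 6, 18, 21 and 39 counts, with 2.46 times vector (1.28 to 5.02) in the RBM4-labelled line. PSMA7, the most abundant α subunit, lay between 45.7 and 62.2 CPM, and its 4 intervals against vector included 1. PSMA1 lay between 9.29 and 16.8 CPM with every interval against vector including 1. PSMA2 and PSMA5 were above vector in all 4 lines relative to the all-gene median, with ratios of 1.42 to 1.77 and 1.14 to 1.42, and no interval beyond 1.

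Of the constitutive β subunits, PSMB2 and PSMB7 had the most counts and the narrowest intervals. PSMB2, a structural β subunit, stood at 116.2 CPM in vector, 122.5 with YAP, 120.0 in the FL line, 114.1 in the S line and 125.9 in the RBM4-labelled line. On library totals it differed little, with ratios to vector of 0.983 to 1.09 and every interval within 0.832 to 1.29, while relative to the all-gene median it stood 0.26 above vector on the log2 scale in the S line. PSMB7 (hg19 chr9:127115744-127177723, minus strand) had 140.6, 154.4, 117.1, 89.1 and 91.6 CPM. It was high in vector and YAP and low in the S line and the RBM4-labelled line, where the ratios were 0.634 (0.536 to 0.749) and 0.651 (0.547 to 0.774). In the FL line the ratio was 0.833 (0.705 to 0.983). Relative to the all-gene median these 3 differences were -0.37, -0.79 and -0.36 on the log2 scale in the order S, RBM4-labelled and FL. PSMB7 and PSMB2, constitutive subunits of the same ring, thus differed in their order over the same libraries.

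The other catalytic subunits of the ring were less abundant. PSMB5, the chymotrypsin-like subunit, had 14.5 CPM in vector, 17.9 with YAP, 15.9 in the FL line, 10.6 in the S line and 13.7 in the RBM4-labelled line. PSMB6, the caspase-like subunit, had 10.3, 14.3, 13.8, 9.29 and 8.02 CPM. For both, every interval against vector included 1. PSMB3, a structural subunit, had 8.86, 15.01, 13.8, 10.9 and 22.9 CPM, lowest in vector and highest in the RBM4-labelled line at 2.59 times vector (1.52 to 4.59). PSMB1 had 7.93, 6.43, 11.7, 10.9 and 16.03 CPM, with a ratio of 2.02 (1.13 to 3.79) in that library and intervals that included 1 in the others. PSMB4, which joins the ring late in assembly, ran from 7.63 to 13.7 CPM with every interval against vector including 1.

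The immunoproteasome subunit PSMB8 (hg19 chr6:32808494-32812456, minus strand), which replaces PSMB5, stood at 22.8 CPM in vector, 11.4 with YAP, 9.60 in the FL line, 8.29 in the S line and 13.0 in the RBM4-labelled line. Vector was the highest library, and the 4 YAP lines lay between 8.29 and 13.0 CPM. Ratios to vector were 0.5005 (0.266 to 0.895) with YAP, 0.420 (0.244 to 0.703) in the FL line, 0.363 (0.215 to 0.599) in the S line and 0.568 (0.356 to 0.898) in the RBM4-labelled line. All 4 rest on the same 49 counts of the vector library. Against YAP alone, the 3 double lines were at 0.839, 0.725 and 1.14, and all 3 intervals included 1. TAPSAR1, a transcript on the opposite strand that shares 17.3% of the exon bases of PSMB8, had 408, 329.7, 252, 191 and 308 CPM in the same order, and so was also highest in vector. Whether reads of the overlap were shared between both genes was not tested.

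The remaining replacements did not share this pattern. PSMB9 (hg19 chr6:32811913-32827628, plus strand), which replaces PSMB6 and is a neighbour of PSMB8, had 10 counts in vector, 1 with YAP, 15 in the FL line, 10 in the S line and 15 in the RBM4-labelled line. Only the YAP library was low, at 0.153 times vector with an interval of 0.00353 to 1.08. PSMB10, which replaces PSMB7, had 8, 8, 13, 9 and 15 counts and no interval beyond 1. Within each library, which removes any effect of scaling, there were 1.58 counts of PSMB8 per count of PSMB5 in vector, 0.640 with YAP, 0.605 in the FL line, 0.781 in the S line and 0.944 in the RBM4-labelled line. Relative to vector, this balance came to 0.405 (0.173 to 0.937) in the YAP line and to 0.383 (0.182 to 0.802) in the FL line. For the S line and the RBM4-labelled line it was 0.494 (0.234 to 1.04) and 0.598 (0.296 to 1.20), intervals that included 1. The balance of PSMB9 to PSMB6 was 0.455 in vector and 0.050 with YAP, at 0.110 of vector (0.00242 to 0.928), and 0.357 to 0.714 in the other lines.

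**Figure D2:**
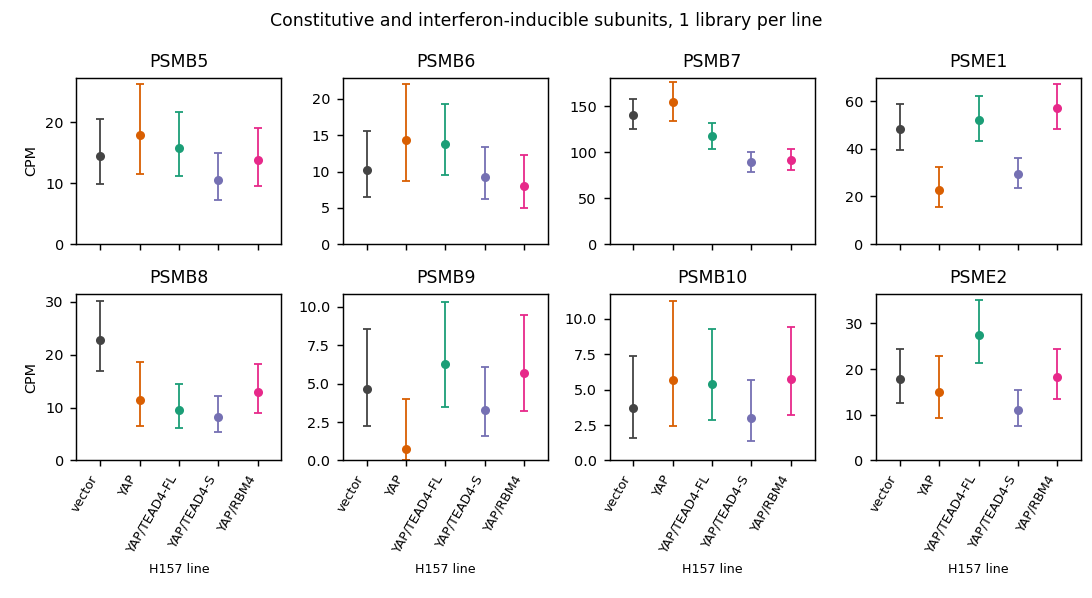
CPM of the constitutive catalytic subunits PSMB5, PSMB6 and PSMB7, the immunoproteasome subunits PSMB8, PSMB9 and PSMB10 and the 11S genes PSME1 and PSME2 in the 5 lines, 1 library each. Bars are exact 95% binomial intervals of the count and cover counting error only. PSMB8 was 22.8 CPM in vector and 8.29 to 13.0 CPM in the YAP lines, and PSME1 was lowest in the YAP and S lines.

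Activator and inhibitor genes followed another order. PSME1 (hg19 chr14:24605372-24608176, plus strand), the α subunit of the 11S activator, had 48.5 CPM in vector, 22.9 with YAP, 52.2 in the FL line, 29.5 in the S line and 57.3 in the RBM4-labelled line. It was low in the YAP and S lines, at 0.472 (0.307 to 0.707) and 0.609 (0.453 to 0.816) times vector, and within counting error of vector in the other lines, at 1.08 and 1.18. PSME2, its partner subunit, had 17.7, 15.01, 27.5, 10.9 and 18.3 CPM. PSME2 was highest in the FL line at 1.55 times vector (1.03 to 2.38, which includes the all-gene median) and lowest in the S line at 0.618 (0.375 to 1.01). Both partners therefore stood lower in the S line than in the FL line.

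PSME3, which forms an activator ring of its own in the nucleus, ran from 10.6 to 17.1 CPM and PSME4 from 3.57 to 6.68 CPM, with every interval against vector including 1. PSMF1, an inhibitor that competes with activators for the core, had 10.3, 7.80, 15.8, 14.7 and 20.7 CPM. It was lowest with YAP and highest in the RBM4-labelled line, at 2.01 times vector (1.20 to 3.47).

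Genes of the MHC class I path, which use the peptides that the immunoproteasome makes, were compared as a list of 13. Relative to the all-gene median, their median log2 ratio to vector was -0.96 with YAP, -0.57 in the FL line, -0.72 in the S line and -0.55 in the RBM4-labelled line, with 12, 9, 10 and 11 of the 13 below. At least 2-fold lower than vector were 6, 5, 7 and 1 of the 13 (all genes 9.57%, 6%, 11% and 3.47%), and 0 were 2-fold higher. HLA-B, a heavy chain, had 197.4, 46.9, 53.6, 39.3 and 101.6 CPM. TAP1, a peptide transporter encoded beside PSMB8 and PSMB9, had 63.6, 37.7, 25.3, 26.5 and 32.6 CPM. Both were highest in vector, as PSMB8 was, whereas TAPBP, ERAP1 and ERAP2 in the same list lay between 0.755 and 1.16 times vector. IRF1, a transcription factor induced by interferon, had 210.0, 264.2, 230.3, 164.2 and 245.4 CPM.

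Of the 6 19S ATPases, only PSMC3 had intervals against vector beyond 1 or beyond the all-gene median. PSMC3, the most abundant, had 39.6, 52.2, 50.9, 43.4 and 59.7 CPM and 1.503 times vector (1.15 to 1.98) in the RBM4-labelled line, and it was above the all-gene median beyond counting error there and in the S line. PSMC2 had 14.5, 14.3, 11.7, 8.29 and 11.5 CPM, and PSMC5 had 17.3, 15.7, 20.9, 20.9 and 26.0 CPM. Every interval of both against vector included 1. PSMC4 ran from 25.5 to 36.7 CPM and PSMC6 had 10, 5, 14, 21 and 20 counts, also with every interval including 1. PSMC1 ran from 29.6 to 42.1 CPM and had the narrowest spread of the 49 members, 0.15 on the log2 scale after the all-gene median was taken off each line. It shares 76.1% of its exon bases with NRDE2 on the opposite strand, and what part of its counts came from there was not tested.

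Among the other cap subunits, PSMD1, PSMD2 and PSMD4 stood out in the FL line, as given above. PSMD1 and PSMD2 are the large scaffolds that hold ubiquitin-binding proteins, and PSMD4 is a ubiquitin receptor. PSMD2 (hg19 chr3:184016986-184026838, plus strand) had 95.1 CPM in vector, 128.6 with YAP, 140.6 in the FL line, 92.2 in the S line and 121 in the RBM4-labelled line. PSMD2 was higher than vector with YAP at 1.35 (1.10 to 1.66), the FL line at 1.48 (1.24 to 1.77) and the RBM4-labelled line at 1.27 (1.06 to 1.52), of which the last includes the all-gene median. PSMD1 had 28.9, 21.4, 46.7, 31.2 and 34.7 CPM, with 1.62 times vector (1.18 to 2.24) in the FL line alone beyond counting error. PSMD4 had 47.9, 41.1, 73.7, 41.6 and 70.0 CPM, high in the FL line at 1.54 (1.20 to 1.98) and in the RBM4-labelled line at 1.45 (1.14 to 1.87). These 3 subunits were all highest in the FL line.

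ADRM1, another ubiquitin receptor, had 80.7, 62.0, 78.9, 52.1 and 69.4 CPM, below vector in every line, and only the interval in the S line, 0.646 (0.517 to 0.806), lay below 1. SHFM1, the smallest cap subunit, had 15.8, 11.4, 18.8, 19.9 and 25.6 CPM, and 1.61 times vector (1.05 to 2.51) in the RBM4-labelled line. PSMD3 and PSMD7, subunits of the lid, ran from 66.3 to 98.05 and from 56.05 to 84.0 CPM. Both had intervals below 1 in the S line alone, 0.733 (0.599 to 0.898) and 0.679 (0.547 to 0.843), which included its all-gene median. PSMD8, also of the lid, had 52.7, 52.2, 66.3, 41.5 and 73.7 CPM and 1.399 times vector (1.10 to 1.78) in the RBM4-labelled line. PSMD6, PSMD11 and PSMD13, further lid subunits, lay between 8.94 and 18.3 CPM, and every interval against vector included 1. The catalytic deubiquitinase of the lid, PSMD14, lay between 8.57 and 13.8 CPM with every interval including 1. PSMD12 had 12.6, 15.01, 9.60, 6.96 and 13.4 CPM and was the 1 member at least 2-fold lower in the S line than with YAP, with an interval that includes the all-gene median.

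Of the 5 factors of 20S assembly, all but PSMG3 had 16 counts or fewer in each library. POMP, which matures the β ring, had 13, 5, 15, 14 and 11 counts, and each interval against vector included 1. PSMG3, a chaperone of the α ring, had 31.4, 29.6, 32.5, 36.8 and 49.5 CPM, highest in the RBM4-labelled line at 1.59 times vector (1.17 to 2.17). Its partner PSMG4 had 6 counts in vector, 0 with YAP, 8 in the FL line, 2 in the S line and 11 in the RBM4-labelled line. PSMG2 had 2, 0, 5, 3 and 10 counts, and no fold between YAP and vector can be given because both were at or under the floor. PSMG1 had 9, 8, 8, 13 and 16 counts. None of the counts of PSMG1, PSMG2 and PSMG4 against vector gave an interval beyond 1.

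The 3 chaperones of cap assembly, PSMD5, PSMD9 and PSMD10, are released before the cap docks and are not part of the mature particle. PSMD9 had 72.9, 77.3, 61.6, 65.5 and 85.5 CPM, and PSMD5 had 35.02, 33.0, 38.1, 31.6 and 45.8 CPM, with every interval against vector including 1. PSMD10, also known as gankyrin, had 11, 7, 14, 21 and 29 counts and 2.16 times vector (1.05 to 4.79) in the RBM4-labelled line.

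Sums over the groups have narrower counting intervals than single genes, and they are given relative to vector and to the all-gene median. The 15 genes of the 20S core summed to 439.6 CPM in vector, 462 with YAP, 464 in the FL line, 376 in the S line and 444 in the RBM4-labelled line. Their relative sums were 1.05, 0.988, 1.05 and 0.898, and only the last, with 0.823 to 0.979, had an interval beyond 1. PSMB7 gave 302 of the 943 core counts in vector and 240 of 1163 in the RBM4-labelled line, and the sum without it was not computed. For the 19 cap genes the relative sums were 0.961, 1.12 (1.05 to 1.20), 1.02 and 1.03. On library totals alone, the core and the cap in the S line came out below vector, at 0.856 and 0.838. PSMB8, PSMB9 and PSMB10 together had 67, 25, 51, 44 and 64 counts, and relative sums of 0.572 (0.346 to 0.917), 0.638 (0.434 to 0.932), 0.570 (0.381 to 0.847) and 0.695 (0.486 to 0.994). Without PSMB8 the relative sum was 0.766 with YAP, where PSMB9 had 1 count, 1.30 in the FL line, 0.917 in the S line and 1.21 in the RBM4-labelled line.

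The 11S genes PSME1, PSME2 and PSME3 had relative sums of 0.620 (0.465 to 0.819) with YAP, 1.09 in the FL line, 0.751 (0.602 to 0.938) in the S line and 0.945 in the RBM4-labelled line. Without PSME1 the value with YAP was 0.828. The 8 assembly genes had 0.972, 0.907, 1.17 (1.01 to 1.35) and 1.18 (1.03 to 1.36). All 51 members together had 0.959, 1.05, 1.03 and 0.999, each with an interval that included 1. Within libraries, the cap held 1.59 counts per count of the core in vector, 1.46 with YAP, 1.81 in the FL line, 1.56 in the S line and 1.83 in the RBM4-labelled line. Relative to vector this balance was 1.13 (1.01 to 1.27) in the FL line and 1.15 (1.03 to 1.28) in the RBM4-labelled line. PSMB7 alone gave 302 of the 943 core counts in vector, 281 of 1112 in the FL line and 240 of 1163 in the RBM4-labelled line. No balance to the core was computed without PSMB7, so a change of the whole core is not shown. Assembly genes per core count were 0.359 in vector and 0.474 in the RBM4-labelled line, a change of 1.32 (1.12 to 1.55), and 0.330 to 0.402 in the other lines.

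**Figure D3:**
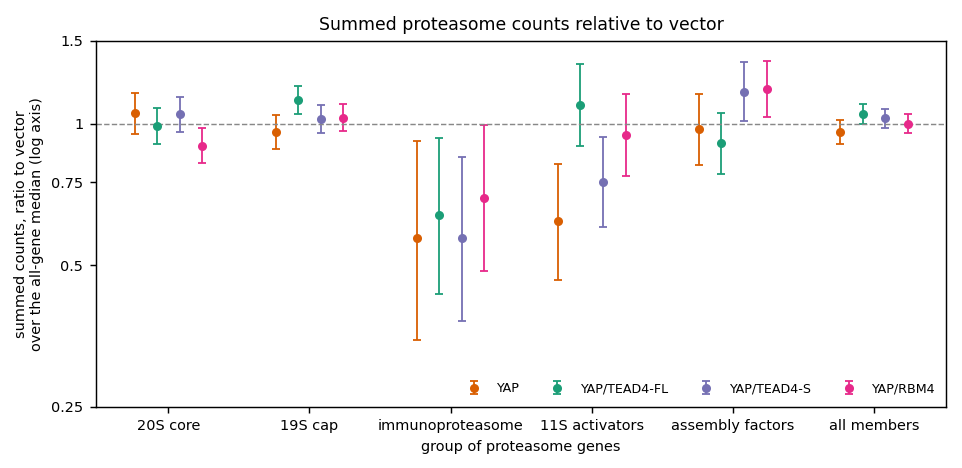
Summed counts of 5 groups of proteasome genes and of all 51 members in the 4 YAP lines, as the ratio to vector over the all-gene median, on a log axis. Bars are exact 95% intervals for counting error only. The sum over all members lay between 0.959 and 1.05 and that of the immunoproteasome genes between 0.570 and 0.695.

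Comparison with the YAP line asked what TEAD4 isoforms or RBM4 add to YAP. The YAP library had the fewest counts, and after the all-gene median was taken off it held the lowest value of 24 of the 49 members, or 49.0%, against 24.8% of all genes. Members at least 2-fold higher than with YAP were 5 of 49 in the FL line (10.2%, all genes 11.6%), 3 in the S line (6.12%, all genes 6.1%) and 9 in the RBM4-labelled line (18.4%, all genes 13.3%). At least 2-fold lower were 0 (all genes 3.94%), 1 (all genes 8.62%) and 0 (all genes 2.94%). With factors of the trimmed mean of M values (TMM) in place of library totals, which moves the all-gene median in the S line from -0.29 to 0.019, the 3 higher and 1 lower there became 7 higher and 0 lower (14.3% and 0% of the members, all genes 9.07% and 4.41%). The median log2 ratios to YAP relative to all genes were 0.23, 0.13 and 0.11, and with PSMG2 and PSMG4 at their floor, or left out where no fold can be given, 0.21, 0.096 and 0.11.

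PSME1 was 2.28 times YAP (1.54 to 3.48) in the FL line and 2.50 times (1.70 to 3.79) in the RBM4-labelled line. In the S line it was 1.29 times (0.853 to 1.999). PSMD1 was 2.18 times YAP (1.45 to 3.38) in the FL line and 1.45 times (0.955 to 2.27) in the S line. PSMA6 at 3.47 times (1.46 to 10.0), PSMF1 at 2.62 (1.36 to 5.56) and SHFM1 at 2.24 (1.28 to 4.14) were among the 9 higher in the RBM4-labelled line. PSMB9, PSMG2 and PSMG4 count among the 2-fold higher in all 3 lines and rest on 1, 0 and 0 counts in the YAP library. For PSMG2 and PSMG4 the 2-fold comes from the pseudocount, no fold can be given in the S line, and only in the RBM4-labelled line did the interval against YAP lie above 1. Without both genes, 3, 1 and 7 members were higher. PSMB7 was the reverse, at 0.760 (0.634 to 0.911), 0.578 (0.481 to 0.695) and 0.594 (0.492 to 0.717) times YAP.

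Direct comparison of the isoforms set the S line against the FL line, where the all-gene median was -0.38 on the log2 scale. The members' median relative to it was -0.086, with 21 above and 28 below. At least 2-fold higher in the S line were 0 members (all genes 2.22%), and 2 were at least 2-fold lower, PSME2 and PSMG4, which is 4.08% against 11.2% of all genes. PSME2 was at 0.397 (0.253 to 0.612). Beyond the counting interval, 3 members lay above the all-gene median, PSMB2, PSMD9 and PSMG3 (all genes 7.75%), and 3 below, PSMD4, PSME1 and PSME2 (all genes 7.13%). PSMD4 was at 0.561 (0.443 to 0.710) and PSME1 at 0.566 (0.426 to 0.749). Both 11S partners were thus among the 3 below.

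Factors that work with the proteasome were given as further lists, with medians relative to the all-gene median. In the order YAP, FL, S and RBM4-labelled, the 13 proteasome-bound and shuttle factors had -0.037 to 0.085 as medians, with 1, 1, 1 and 1 at least 2-fold higher (all genes 4.9%, 8.9%, 3.5% and 9.22%) and 0 lower. The 1 gene was TXNL1, with 2 counts in vector. The 9 genes of ubiquitin and its activation had -0.11, 0.31, 0.010 and 0.23, with 0, 2, 0 and 0 at least 2-fold higher (the same shares of all genes) and 0 lower. Those 2 were UBA6, an activating enzyme, and UFD1L, a cofactor of the segregase VCP.

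NFE2L1, the regulator whose letters were shown above, had 73.7 CPM in vector, 35.7 with YAP, 48.4 in the FL line, 31.3 in the S line and 70.5 in the RBM4-labelled line. Its ratios were 0.485 (0.347 to 0.668), 0.657 (0.514 to 0.837), 0.424 (0.325 to 0.552) and 0.958 (0.774 to 1.19). Of the 7 proteasome gene regulators, 1, 0, 0 and 0 were at least 2-fold higher (all genes 4.9%, 8.9%, 3.5% and 9.22%). At least 2-fold lower were 1, 0, 1 and 1 (all genes 9.57%, 6%, 11% and 3.47%). NFE2L1 was the gene at least 2-fold lower with YAP and in the S line. DDI2, a protease that activates NFE2L1, was the gene called higher with YAP and lower in the RBM4-labelled line. It had 3, 7, 7, 4 and 1 counts, and its intervals in those 2 comparisons included 1. For 2 complexes of similar make, the medians were -0.21, 0.42, 0.11 and 0.24 over the 9 subunits of the COP9 signalosome, a relative of the cap's lid, and 0.0061, 0.42, 0.15 and 0.016 over the 8 of the CCT chaperonin. The proteasome's medians of -0.13, 0.17, 0.13 and 0.10 were nearer to 0 than those of both in the FL line alone. The chaperonin was nearest with YAP and in the RBM4-labelled line, and the signalosome in the S line. No test of a difference was possible.

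The median spread of members over the 5 libraries was below that of all genes at 1 to 10 and 30 to 200 CPM. At 10 to 30 CPM it was about level. Spread was measured as the highest minus the lowest log2 value after the all-gene median was taken off. For the 17 members of 30 to 200 CPM the median spread was 0.39, against 0.52 for 3954 genes, and for the 21 members of 10 to 30 CPM it was 0.78, against 0.74 for 3683 genes. The 11 members of 1 to 10 CPM had 0.91, against 1.28 for 6719 genes. Above 10 CPM, PSMB8 had the widest spread at 1.30, followed by PSMF1 at 1.19, PSMB3 at 1.15 and PSME1 at 1.14. PSMB7 stood at 0.92, although it is one of the most abundant members. PSMB2, at nearly the same level as PSMB7, had 0.32.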

How the data were processed

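Expected counts per gene from RNA-seq of 5 H157 lines, 1 library each, were used. The authors mapped reads to hg19 by Bowtie2 (2.2.5, per the submitters' processing notes), estimated expression with RSEM (mean fragment length 75, standard deviation 10) and deposited expected counts, which are unscaled. The sources used here do not give the RSEM version. Selection of polyadenylated RNA and a Total RNA kit with Ribo-Zero are both named in the methods, so which was used is unclear. Column names carry a second-strand label, and how strand entered the counting is not stated. RSEM divides reads that match several genes, and how reads of processed copies were shared was not tested.

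CPM scaled each count to the library total, log2 ratios added 0.5 CPM, which understates the change of low genes, and the 15024 genes with a mean CPM of at least 1 were compared. A call was a ratio of at least 2-fold on library totals after the 0.5 CPM was added. A gene just past 2-fold by its CPM alone can therefore miss the call. Since a line had 1 library, no test was computed, and the EBSeq calls of the authors were not repeated. Exact 95% binomial (Clopper-Pearson) intervals used rounded counts and cover counting error only, as do the floors of 3 counts. The TEAD4 isoforms were told apart by the names in the heat map methods of the paper. Coordinates and exon overlap come from GENCODE on hg19 and promoter windows from RefSeq. SHFM1 was matched under its current name SEM1. R 4.3.3 with edgeR 4.0.16 and DESeq2 1.42.0 gave scaling factors only. Python 3.11.15 with numpy 2.4.6, pandas 2.3.3, scipy 1.17.1 and matplotlib 3.10.9 did the rest. The steps were tested on simulated counts with counting error only. The genes changed there were more abundant than most members and changed by more than 2-fold, so members of low depth are not covered.

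Values in every library are given for the catalytic subunits and their replacements, POMP, ADRM1, SHFM1, PSME1, PSME2, members of at least 10 CPM at 2-fold, and the 2 members with the widest range in each list. Other members were named after their values were seen. The members and lists were chosen with earlier results of these data known.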

Additional observations from a re-analysis of the deposited data

Results flagged for a closer look

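PSMG2, a chaperone of 20S assembly, had a log2 ratio to vector of -1.52 with YAP and 1.59 in the RBM4-labelled line, opposite directions under the same contrast. The difference was not tested, and the counts were 2 in vector, 0 with YAP and 10 in the RBM4-labelled line, so both ratios depend on the pseudocount and are no bounds. Against the floor of the YAP library, PSMG2 was at least 1.78-fold higher in the RBM4-labelled line than with YAP, a bound that takes no account of the error of the 10 counts, while the counting interval of this ratio starts at 1.198.

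Genes antisense to members or beside them, which no comparison above uses as members, also had counts above the floor. Mean levels over the 5 libraries were 298 CPM for TAPSAR1, 41.1 CPM for PSMD5-AS1, 3.38 CPM for PSMD6-AS2 and 3.26 CPM for PSMG3-AS1. TAPSAR1 thus stood above PSMB8, with which it shares exon bases and whose mean was 13.0 CPM, and PSMD5-AS1 above PSMD5 at 36.7 CPM.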

How the results depend on the processing

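The median of the members relative to the all-gene median kept its direction in the 8 comparisons with pseudocounts of 0.1 and 2 CPM, with no filter or one of 10 CPM, and without members with shared exon bases, and in the 6 comparisons without the RBM4-labelled line also with a filter over the other 4 libraries. The 3 other scalings (TMM, DESeq2 and totals that leave out the 50 most abundant genes) cancel in this difference apart from the pseudocount, so they are no check of it. Counts of members at least 2-fold away changed with the settings, and the cause was not tested beyond the settings themselves. For the 10 CPM filter, the interval rule and the other pseudocounts, the share of all genes was not computed. Those counts therefore do not show whether members changed more or less than all genes. Against vector, a 1.5-fold threshold gave 9, 8, 10 and 12 members in the order YAP, FL, S and RBM4-labelled, of which 2, 7, 0 and 10 were higher (all genes 12.7%, 20.5%, 8.11% and 21.8% higher and 18.9%, 12.7%, 26.9% and 8.98% lower). With the 10 CPM filter the counts were 1 with YAP, 1 in the S line and 1 in the RBM4-labelled line. Calls whose counting interval also lay beyond 1 numbered 1 with YAP and 1 in the S line. A pseudocount of 2 CPM gave 1 in the S line and 2 in the RBM4-labelled line. With 0.1 CPM there were 2 in the FL line and 6 in the RBM4-labelled line, the 6 all higher. Against YAP, the 1.5-fold threshold gave 20, 14 and 23 members in the FL line, the S line and the RBM4-labelled line, with 18, 8 and 20 higher (all genes 23%, 11.4% and 26.8% higher and 10.3%, 26.8% and 8.61% lower), and the 10 CPM filter 2, 1 and 4. The interval gave 3 in the FL line and 1 in the S line, and a pseudocount of 2 CPM gave 0 in the S line. The 3 other scalings, which move all genes alike, gave 7, 7 and 7 in the S line, all higher (all genes 9.07%, 9.01% and 9.89% higher). For the S line against the FL line these 3 scalings gave 1, 1 and 1 (all genes 5.17%, 5.17% and 6.67% lower), the 10 CPM filter 1 and the 1.5-fold threshold 16, all lower (all genes 31.4%). Without PSMG2 and PSMG4, left out after the data were seen, the counts were 2 with YAP and 1 in the S line against vector, 3 in the FL line and 2 in the S line against YAP, and 1 for the S line against the FL line. Sums relative to the all-gene median, in alternatives chosen after the data were seen, changed when the leading gene or genes with shared exon bases were left out. For the sums and the medians, shared means over 10% of a member's exon bases, which held for 11 members. Members that share less, such as PSMB9, were kept. Without PSMB8, the immunoproteasome sum was 0.766 with YAP, turned to 1.30 in the FL line and 1.21 in the RBM4-labelled line, and was 0.917 in the S line. Without PSMB8 and PSMB10, which leaves PSMB9, it was 0.153 with YAP, 1.26 in the FL line, 0.868 in the S line and 1.09 in the RBM4-labelled line. The 11S sum with YAP was 0.828 without PSME1, and the cap in the FL line was 1.20 without members with shared exon bases. Of the values of named genes under these scalings, 261 stayed within the counting interval and 3 did not, all of PSMB7 in the S line, which moved from 0.634 times vector to between 0.770 and 0.779. No paired analysis was possible because each line has 1 library. No library could be left out of a comparison for the same reason. The depth limits single members most, with a median of 20 to 48 counts.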
